A study of Mus musculus with 12 samples.

Results

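Acetylation of histone H3 was described at 5 cyclin genes, Ccna2, Ccnd1, Ccnd2, Ccne1 and Ccne2, out of 21887 protein-coding genes of the mouse annotation (GRCm38.p6). The genes were taken from a fixed list, chosen with earlier results of these data known, so they are not an independent draw from all genes. A peak was counted for a gene when it overlapped the gene body or the 10000 bp on either side of it, together called its window. The measurements are chromatin immunoprecipitation followed by sequencing (ChIP-seq) of fibro-adipogenic progenitors (FAPs), the muscle's own mesenchymal progenitors of fat and fibrous tissue. All groups carried the mdx mutation on C57Bl6, which removes dystrophin and models Duchenne muscular dystrophy. Old TSA mice were 12 months old and received 0.6 mg/kg/day of trichostatin A (TSA), which inhibits histone deacetylases, by intraperitoneal injection for 15 days. Old vehicle mice were 12 months old and received saline over the same time. Young TSA and young vehicle mice were 1.5 months old and were treated in the same 2 ways. The cells were sorted by flow cytometry, but the sorting gate, the number of animals and any pooling are not given in the sources used here. There is 1 library for each age and treatment and each of the 2 marks, acetylated lysine 27 (H3K27ac) and acetylated lysines 9 and 14 (H3K9/14ac) of H3, so the differences below have no replicate check and no p-value.

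Cyclins are the regulatory partners of cyclin-dependent kinases. D-type cyclins accumulate when cells receive growth signals and, with their kinases, phosphorylate the retinoblastoma protein, which frees E2F factors to switch on genes of the next phase, the E-type cyclins among them. E-type cyclins drive entry into DNA synthesis and cyclin A2 acts from then until mitosis. FAPs are quiescent in resting muscle and divide after injury. Acetylation of H3 marks active promoters, and H3K27ac active enhancers as well.

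Between 2711 and 20664 complete peaks were read per library, which is 12.6% to 50.8% of the peaks counted in the headers, because the lists, as they were used, stop part of the way along the genome. H3K27ac lists reached 5 of the 5 cyclin genes in old TSA, 2 in old vehicle, 5 in young TSA and 1 in young vehicle cells. H3K9/14ac lists reached 4 in old TSA, 2 in old vehicle, 2 in young TSA and 0 in young vehicle cells. A list that ended before a gene gives no value for it. The H3K9/14ac libraries did not pair by age or treatment. Over 1709 regions with a peak in all 4, the rank correlation of tags was 0.911 between old vehicle and young TSA, 0.909 between young TSA and young vehicle, 0.898 between old TSA and young TSA and 0.879 between old TSA and old vehicle. Whether any of these libraries carries another's label was not tested, and the H3K9/14ac contrasts below take the labels as given. The FAP markers fixed for the check had a peak in 9 of 9 reached genes in both H3K27ac lists of TSA-treated mice. Of all 10944 genes in the stretch of these 2 lists, 58.5% had a peak in both. The endothelial markers also had a peak in 6 of 6 in both, with summed tags of 2855 in old TSA and 4312 in young TSA cells when each list's tags in peaks are scaled to 1000000. Muscle stem cell markers had a peak in 2 of 5 in both lists, with none at Pax7, Myod1 or Cdh15. Macrophage markers had one in 2 of 5 in old TSA and 1 of 5 in young TSA cells, with none at Itgam, Ptprc or Cd163 in either. Muscle fibre markers had a peak in 3 of 6 in both, with none at Acta1, Ckm or Ryr1. In whole sorted populations, fewer cells of a type and less acetylation per cell cannot be told apart.

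The comparison that reached all 5 cyclin genes was H3K27ac in old TSA against young TSA cells. Ccnd1, Ccne1 and Ccne2 had no H3K27ac peak in old TSA cells and weak ones in young TSA cells. Of the 6482 genes with a young TSA peak of any strength, 1.23% had none in old TSA cells. Ccna2 and Ccnd2 had a peak in both, with fewer tags at Ccna2 and more at Ccnd2 in old TSA cells, neither by 1.5-fold. In all, 38 peaks lay in the windows over the 7 lists that reached any of the genes, between 230 and 2667 bp wide and holding 44 to 627 tags each. Of the 21 pairs of a gene and a list that reached it, 17 had a peak. Of all 9477 genes that both old TSA lists reached, 5686 had an H3K27ac peak and 5866 an H3K9/14ac peak. Of the 38 peaks, 21 lay inside the gene, 6 crossed one of its ends and 11 lay outside, and the furthest, inside Ccnd2, lay 3217 bp from the nearest annotated end. At each gene the peaks gathered at one end, the end with the higher coordinate for Ccna2, Ccnd1, Ccnd2 and Ccne1 and the lower for Ccne2, so that the rest of each window was without a peak.

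**Figure D1:**
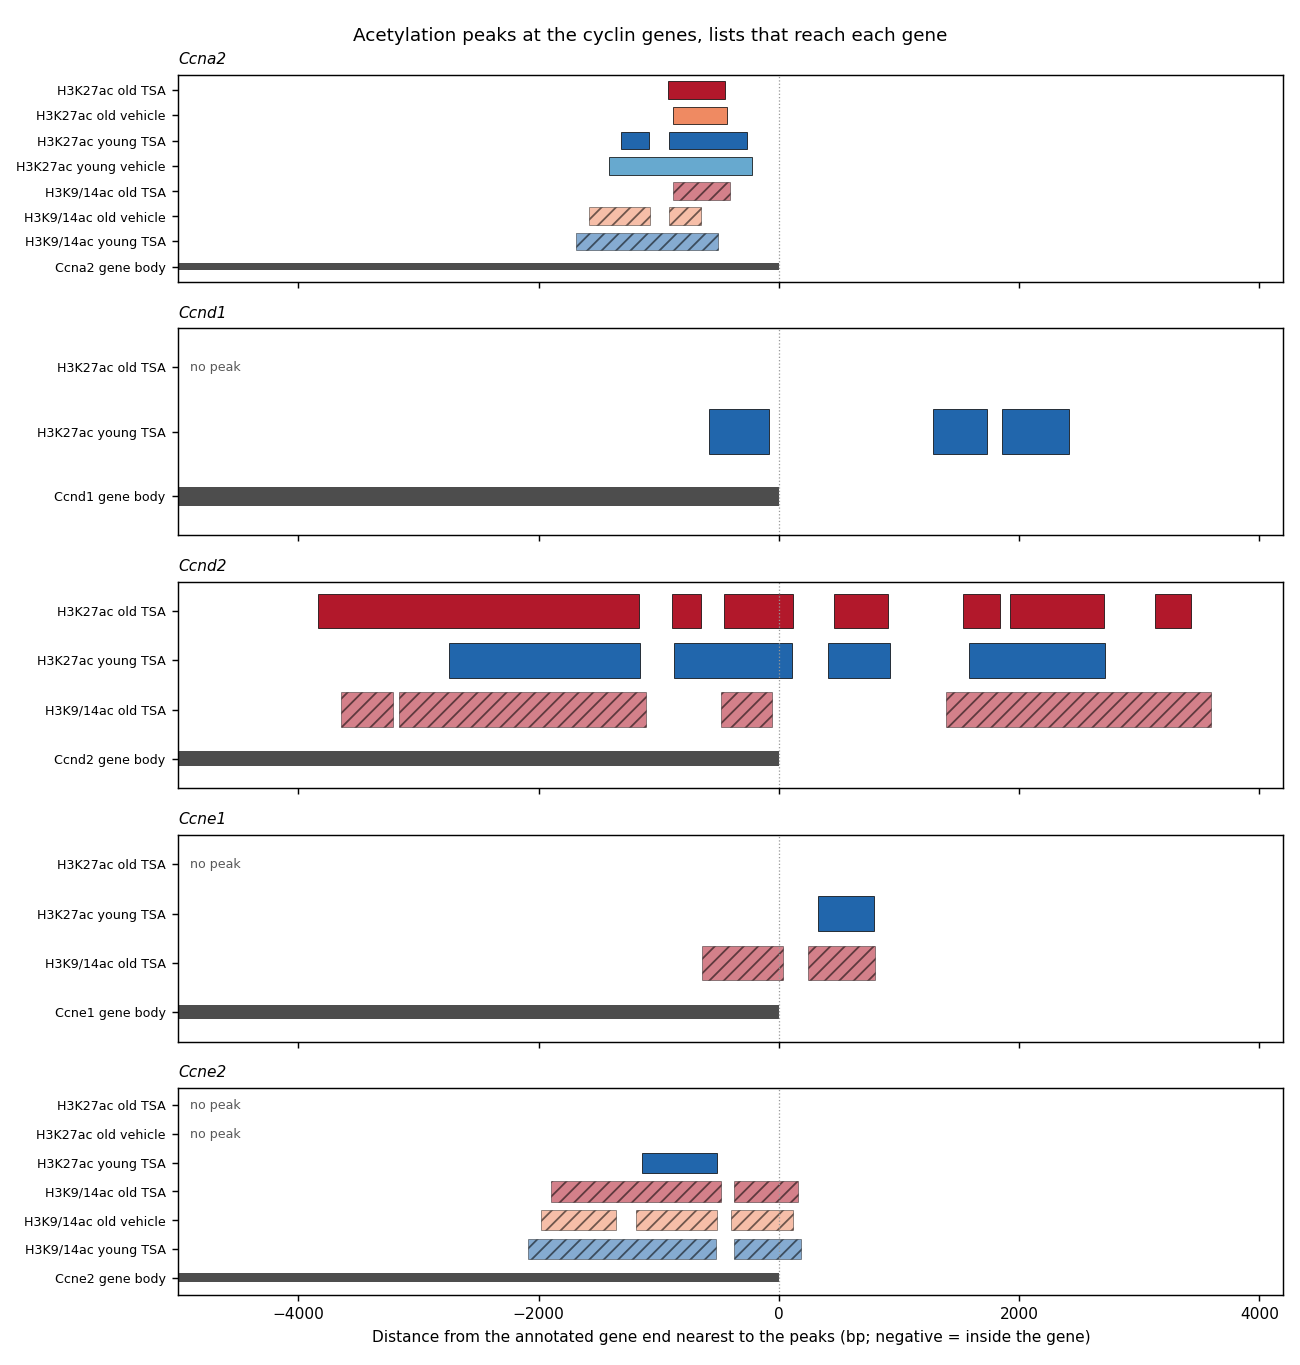
Positions of the acetylation peaks at the 5 cyclin genes, as distance in bp from the gene end where they gather, with negative values inside the gene. Each row is 1 library whose list reached the gene, solid for H3K27ac and hatched for H3K9/14ac; the rows of Ccnd1, Ccne1 and Ccne2 for H3K27ac in old TSA cells hold no peak, while Ccnd2 has 7 there.

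Among the D-type cyclins, Ccnd1 (cyclin D1, a target of many growth signals) lies on chromosome 7 from 144929931 to 144939831. The gene LTO1 overlaps it by 818 bp at the other end. H3K27ac in old TSA cells had no peak in the window, against 3 peaks covering 1512 bp with 228 tags (exact Poisson 95% interval 199 to 260, counting error only) in young TSA cells. The first of these 3 peaks lay inside the gene, 80 bp from its end, with 74 tags, and the other two began 1284 and 1854 bp beyond that end with 72 and 82 tags. The nearest old TSA peak lay 14193 bp from the gene, across the far end of LTO1, and held 379 tags. No vehicle list and no H3K9/14ac list reached Ccnd1, so the treatment contrast is not analysed here for it.

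Ccnd2 (cyclin D2), on chromosome 6 from 127125162 to 127152188, carried the most acetylation per kb of window among the 5 genes. H3K27ac had 7 peaks, 5319 bp and 1070 tags (1007 to 1136) in old TSA cells, against 4 peaks, 4218 bp and 740 tags (688 to 795) in young TSA cells. H3K9/14ac in old TSA cells had 4 peaks, 5120 bp and 741 tags (689 to 796). Per kb of window these are levels of 22.8, 15.7 and 15.8 tags, above 76.6%, 63.3% and 86.0% of the genes with a peak in the same list. The long non-coding gene 9330179D12Rik, from 127149389 to 127212419, overlaps Ccnd2 by 2800 bp, so most of these peaks cannot be assigned to one of the 2 genes.

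To set libraries of different depth side by side, the log2 ratio of tags in a window was taken relative to the median of that ratio over the regions that both lists mark, with an exact binomial 95% interval that covers counting error only. On this scale of relative tags, H3K27ac at Ccnd2 was 0.50 higher in old TSA than in young TSA cells (0.36 to 0.63), above 87.7% of the genes with a peak in both. That is short of the 1.5-fold (0.585) used here to call a gene. Of the 2 cyclin genes with a peak in both lists 0 passed it in either direction, where 9.62% of 6402 genes were higher by that much and 4.94% lower. With the gene body alone Ccnd2 was past it, at 0.82. The difference at Ccnd2 was uneven along the gene. In the region from 127148354 to 127151034, inside the gene, H3K27ac had 627 tags over 2667 bp in old TSA cells, against 282 tags over 1591 bp in young TSA cells, relative tags of 1.12 (0.91 to 1.32), and 235 tags per covered kb in old TSA and 177 in young TSA cells before scaling. Around the gene end, the region from 127151298 to 127152304 had 144 tags in old TSA and 150 in young TSA cells (relative tags -0.10, -0.44 to 0.24). Beyond the end, 2 regions had 68 and 183 tags in old TSA cells, against 88 and 220 in young TSA cells (relative tags -0.41, -0.89 to 0.06, and -0.30, -0.59 to -0.01). A last old TSA peak of 299 bp with 48 tags had no young TSA counterpart. The higher total at Ccnd2 in old TSA cells thus lay in the region inside the gene, where its peak was also wider.

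Of the E-type cyclins, Ccne1 (cyclin E1) lies on chromosome 7 from 38097984 to 38107490. H3K27ac in old TSA cells had no peak in the window, and the nearest lay 13092 bp from the gene with 42 tags. In young TSA cells it had 1 peak of 466 bp from 38107813 to 38108278 with 67 tags (51.9 to 85.1). H3K9/14ac in old TSA cells had 2 peaks covering 1229 bp with 148 tags (125 to 174), one of 676 bp across the gene end with 87 tags and one of 553 bp outside it with 61 tags. In old TSA cells, then, the Ccne1 window held H3K9/14ac without an H3K27ac peak. No other list reached it.

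The promoter of Ccne1 is printed because peaks of both marks lie at or beside it. The H3K27ac peak of young TSA cells lies inside the outer H3K9/14ac peak of old TSA cells, and the other H3K9/14ac peak covers the gene end. Of the 5 genes it was the one matched in the RefSeq promoter table (GRCm38.p6), which holds the 250 bases before and 50 after the gene start. It lies at chr7:38107441-38107740 on the minus strand, and capitals mark GC boxes (GGGCGG on either strand), the motif of the SP family of transcription factors.
Ccne1 promoter: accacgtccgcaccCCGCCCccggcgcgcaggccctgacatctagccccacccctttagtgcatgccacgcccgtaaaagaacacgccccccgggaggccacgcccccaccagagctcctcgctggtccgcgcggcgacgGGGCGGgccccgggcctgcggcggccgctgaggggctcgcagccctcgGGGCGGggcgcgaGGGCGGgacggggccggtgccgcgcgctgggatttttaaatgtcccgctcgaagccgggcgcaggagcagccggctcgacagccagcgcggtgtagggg
The 300 bases hold 76.0% G and C, more than 96.9% of 32851 promoters in the table, whose median is 52.7%. They hold 41 CpG dinucleotides, against a median of 7. There are 4 GC boxes, a motif found in 35.7% of promoters. Searches of both strands found no exact match to the E2F sequences TTTCCCGC, TTTCGCGC or TTTGGCGC (any of them present in 1.84% of promoters). The same held for the E-box CACGTG (7.15%), the full cAMP response element TGACGTCA (1.79%), its core TGACG (20.8%) and the AP-1 site TGACTCA (5.20%). It held too for CCAAT (37.4%) and the cell cycle homology region TTTGAA (17.9%). Only these exact sequences were sought, so variant sites, of E2F among others, may be present. The H3K9/14ac peaks of old TSA cells covered 87 of the 300 bases. The H3K27ac peak of young TSA cells covered 0 of them and began 73 bp beyond the upstream edge.

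Ccne2 (cyclin E2), on chromosome 4 from 11190433 to 11204779, was reached by more lists. H3K27ac had no peak in old TSA or in old vehicle cells, and the nearest peaks lay 33271 bp away with 638 tags in old TSA and 33288 bp away with 500 tags in old vehicle cells. In young TSA cells it had 1 peak of 625 bp inside the gene with 75 tags (59.0 to 94.0). No H3K27ac peak was therefore listed at Ccne2 in old mice under either treatment. H3K9/14ac was present in each list that reached the gene, with 206 tags over 1950 bp in old TSA (179 to 236), 273 tags over 1818 bp in old vehicle (242 to 307) and 319 tags over 2121 bp in young TSA cells (285 to 356). The long non-coding gene A630034I12Rik overlaps Ccne2 by 798 bp at the end where the peaks lie, and Ints8, a subunit of the Integrator complex, by 5622 bp at the other end.

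H3K9/14ac at Ccne2 was close between groups once scaled. Relative tags were 0.05 for old TSA over old vehicle (-0.22 to 0.32) and -0.16 for old TSA over young TSA (-0.42 to 0.09), and both intervals include 0. Without scaling they were -0.41 and -0.63, where the median log2 tag ratios of the 2 comparisons were -0.46 and -0.47. The peak at the gene end had 59 tags in old TSA, 98 in old vehicle and 94 in young TSA cells, and the stretch inside the gene had 147, 175 and 225 tags in the same groups. H3K9/14ac without an H3K27ac peak was seen at Ccne1 and Ccne2 in old TSA cells, 2 of the 4 cyclin genes that both lists reached. Of 9477 genes 5.11% showed it, or 8.25% of the 5866 genes with H3K9/14ac. Ccna2 and Ccnd2 had both marks there. In old vehicle cells Ccne2 showed H3K9/14ac alone and Ccna2 did not, where 10.4% of 5157 genes showed it, or 15.9% of those with H3K9/14ac. In young TSA cells 0 of 2 did, Ccna2 and Ccne2 having both marks, where 9.25% of 5252 genes showed it, or 13.8% of those with H3K9/14ac.

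**Figure D2:**
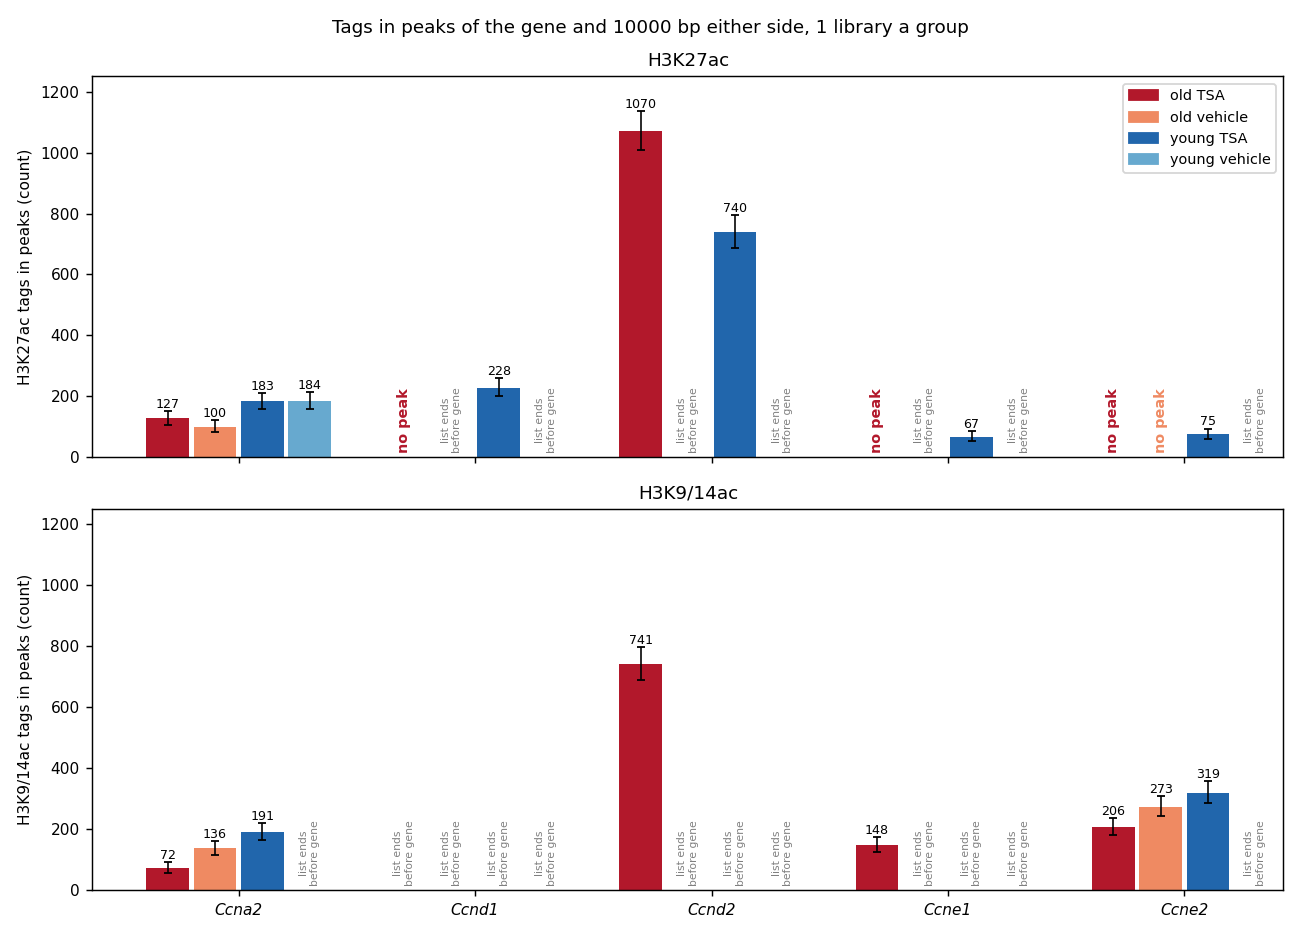
Tags in peaks (count, not scaled for depth) in the windows of the 5 cyclin genes, 1 bar for each library, H3K27ac above and H3K9/14ac below, with exact Poisson 95% intervals for counting error. Ccnd2 has the most H3K27ac tags, 1070 in old TSA and 740 in young TSA cells, Ccnd1, Ccne1 and Ccne2 have no H3K27ac peak in old TSA cells, and grey text marks lists that end before the gene.

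The peaks absent from old TSA cells were weak ones. The 5 young TSA peaks at Ccnd1, Ccne1 and Ccne2 held 67 to 82 tags each, between the 19.8 and 28.1 percentiles of young TSA peaks. Among the 1429 young TSA peaks with that many tags, 20.1% had no overlapping old TSA peak and 79.9% (exact binomial interval 77.7 to 82.0) had one. Of all 16171 young TSA peaks, 89.5% overlapped one. Counted by gene, the 3 cyclin genes compare with 0.731% of the 10944 genes in the stretch, with 1.23% of the 6482 genes that had a young TSA peak, and with 3.54% of the 1131 genes whose windows held 67 to 228 young TSA tags. Over the same stretch the old TSA list held more peaks, 20664, and more tags, 4159284, than the young TSA list with 16171 peaks and 3785282 tags. Endothelial marker tags moved with these 3 genes, at 2855 in old TSA and 4312 in young TSA cells, while FAP marker tags were 6055 in old TSA and 4896 in young TSA cells on the same scale. Macrophage marker tags were 137.3 in old TSA and 103.6 in young TSA cells, and muscle fibre marker tags 957.8 and 931.8. Muscle stem cell marker tags were 185.9 in old TSA and 207.6 in young TSA cells. The part of any of these in the result was not tested.

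**Figure D3:**
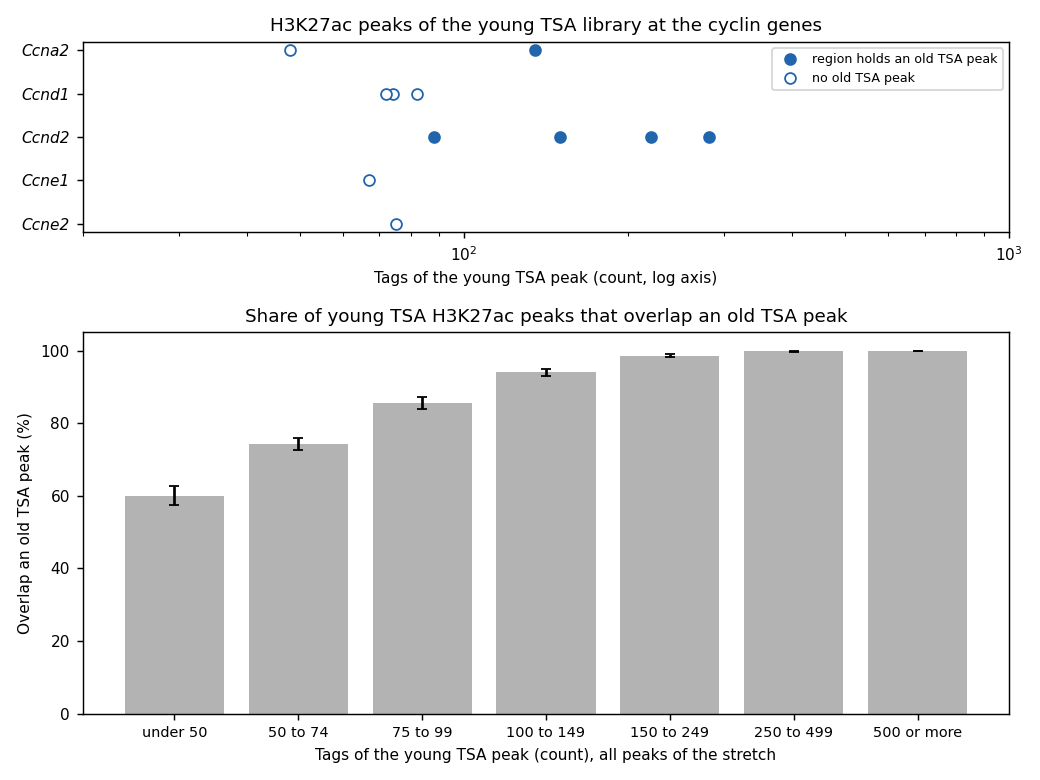
Above, tags (count, log axis) of each young TSA H3K27ac peak at the cyclin genes, filled where an old TSA peak lies in the same region; below, share (%) of all young TSA peaks that overlap an old TSA peak, by their tags, with exact binomial 95% intervals. The open points lie between 48 and 82 tags, and the share is 60.0% below 50 tags, 74.3% from 50 to 74 tags and 98.6% from 150 to 249 tags.

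The count depended on which peaks were kept. With flanks of 2000 bp the same 3 genes had a peak in young TSA and none in old TSA cells (1.54% of genes with a young TSA peak). With the gene body alone it was Ccnd1 and Ccne2 (1.82%). With the upper 50% of each list's peaks by width it was 0, because Ccnd2 was then the 1 cyclin gene left with a young TSA peak (4.27%).

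Ccna2 (cyclin A2), an S phase and mitotic cyclin on chromosome 3 from 36564865 to 36573038, was reached by 7 lists and had a peak in each, inside the gene near one end. In the comparisons that reach it, 56.5% to 63.2% of all genes had a peak in both lists. H3K27ac covered 477 bp with 127 tags in old TSA (106 to 151), 452 bp with 100 tags in old vehicle (81.4 to 122), 880 bp with 183 tags in young TSA (157 to 212) and 1190 bp with 184 tags in young vehicle cells (158 to 213). Both old libraries were lower than both young ones in tags, not scaled, and in covered bp. Over all genes of the shared stretch, covered bp was lower in old than in young vehicle cells at 2193 genes and higher at 147. Under TSA it was lower in old cells at 2990 genes and higher at 3775. H3K9/14ac covered 476 bp with 72 tags in old TSA (56.3 to 90.7), 766 bp with 136 tags in old vehicle (114 to 161) and 1180 bp with 191 tags in young TSA cells (165 to 220). Bbs7, a gene of primary cilia, starts or ends at 36573142, just beyond the end of Ccna2 where the peaks lie, and Exosc9, a subunit of the RNA exosome, overlaps the other end by 863 bp. Acetylation of Ccna2 and of Bbs7 therefore cannot be told apart by position.

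The H3K27ac age contrasts at Ccna2 had the same sign under TSA and vehicle, but the vehicle value lay near that of all genes. H3K27ac relative tags were -0.56 for old TSA over young TSA (-0.90 to -0.23), below the value of all but 5.23% of genes and just short of the 1.5-fold, which they passed at -0.66 when scaled by total tags in peaks. Tags per covered kb, not scaled, were 266 in old TSA and 208 in young TSA cells, so the peaks in old TSA cells were narrower and not sparser. The part with a peak in both lists had 127 tags in old TSA and 135 in young TSA cells (relative tags -0.12, -0.49 to 0.24). A young TSA peak of 230 bp with 48 tags had no old TSA counterpart, so the lower value lay there. In vehicle-treated mice the relative tags were -0.29 for old over young (-0.66 to 0.07), an interval that includes 0. That is above 35.1% of genes, whose median was -0.17. The value was -0.08 when scaled by total tags in peaks and -0.88 without scaling. When scaled, 0 of 1 cyclin genes passed the fold, where 3.82% of 2146 genes were higher and 16.4% lower.

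H3K9/14ac gave the 1 called value among the 9 computed. At Ccna2 relative tags were -0.94 for old TSA over young TSA (-1.35 to -0.54), lower than the fold, with 3.07% of genes below it. Before scaling the log2 ratio was -1.41 and went with peak width. The peaks covered 476 bp in old TSA and 1180 bp in young TSA cells, while tags per covered kb, not scaled, were 151 and 162. The median log2 tag ratio of this comparison, which scaling takes off, was -0.47, so the scaled value does not follow width alone. Relative tags are a ratio of tags in called peaks and do not count tags outside them. Ccna2 was 1 of the 2 cyclin genes reached, Ccne2 being the other, where 9% of 3321 genes were lower by the fold and 7.23% higher. Endothelial marker tags of H3K9/14ac were also lower in old TSA than in young TSA cells, at 2158 in old TSA and 3115 in young TSA cells over 4 of 4 genes with a peak, and macrophage marker tags were 240.8 in old TSA and 391.2 in young TSA cells over 2 of 3. FAP marker tags were higher, at 3412 in old TSA and 2631 in young TSA cells over 7 of 7. Muscle stem cell marker tags were also higher, at 336.4 in old TSA and 235.7 in young TSA cells over 2 of 3. Muscle fibre marker tags were 1194 in old TSA and 1275 in young TSA cells over 2 of 2. Of all 5252 genes in this stretch, 63.2% had an H3K9/14ac peak in both lists. For H3K27ac, macrophage marker tags went the other way, at 137.3 in old TSA and 103.6 in young TSA cells. The part of any of these in the value at Ccna2 was not tested.

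TSA against vehicle could be compared at Ccna2 and, in old mice, Ccne2. H3K27ac relative tags at Ccna2 were -0.14 for old TSA over old vehicle (-0.53 to 0.26) and 0.12 for young TSA over young vehicle (-0.18 to 0.43). Without scaling they were 0.34 in old and -0.01 in young mice, where the median log2 tag ratios were 0.48 and -0.13, so both signs depended on the scaling. Both intervals include 0, and 0 of 1 cyclin genes with a peak in both lists passed the fold at either age. In old mice 14.3% of 3101 genes were higher and 0.709% lower, and in young mice 2.06% of 2231 genes were higher and 6.28% lower. H3K9/14ac relative tags at Ccna2 were -0.46 for old TSA over old vehicle (-0.89 to -0.04). The 2 cyclin genes reached did not pass the fold there, where 7.75% of 3211 genes were higher and 8.75% lower. Within the Ccna2 window, H3K9/14ac from 36572126 to 36572634 had a peak of 476 bp with 72 tags in old TSA and one of 265 bp with 48 tags in old vehicle cells (relative tags 1.04, 0.50 to 1.60), or 151 tags per covered kb in old TSA and 181 in old vehicle cells before scaling. The old vehicle peak from 36571461 to 36571961 with 88 tags had no old TSA counterpart. The called peaks at Ccna2 thus differed in place and width between these libraries. These comparisons share libraries, since each list of TSA-treated cells enters both an age and a treatment contrast.

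**Figure D4:**
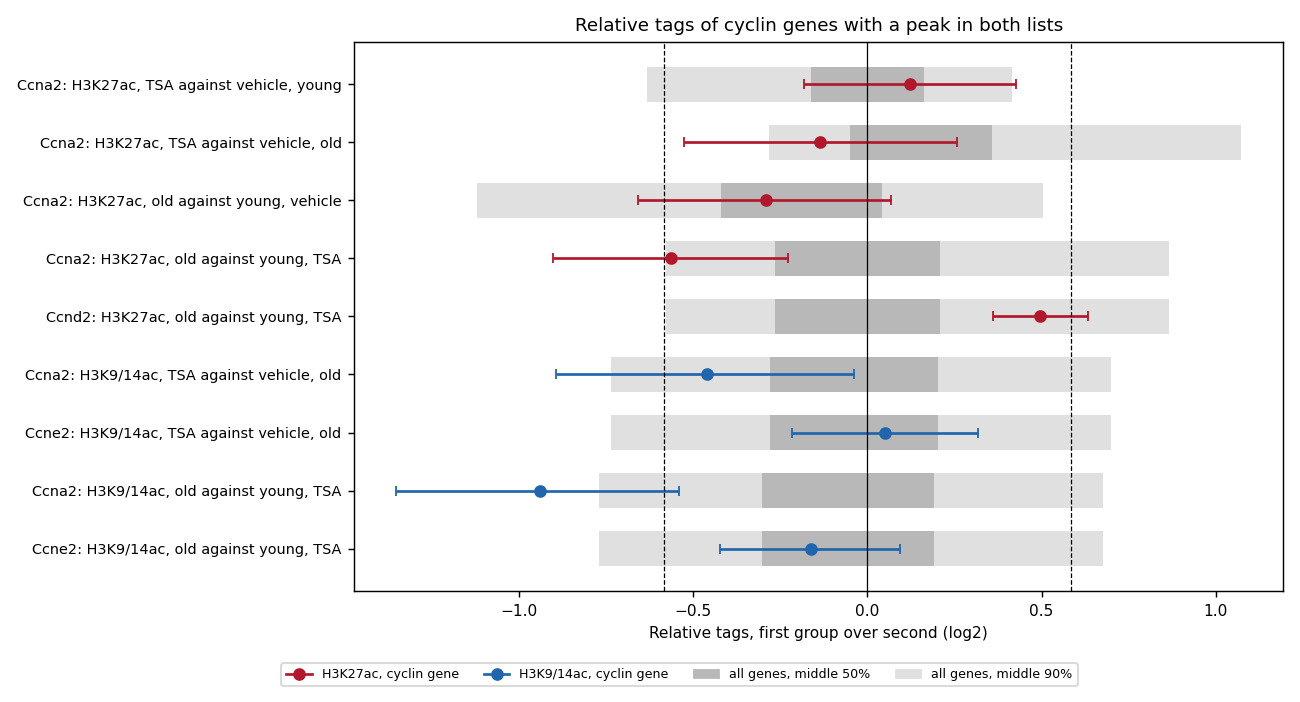
Relative tags (log2) of the cyclin genes with a peak in both lists of a comparison, with exact binomial 95% intervals for counting error, for 9 values over the 6 comparisons that reach one; grey bars hold the middle 50% and 90% of all genes. The H3K9/14ac value of Ccna2 for old TSA over young TSA, -0.94, is the one past the dashed lines at the 1.5-fold.

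Genes whose covered bp followed the same course over lists were sought by the root mean square difference of log2 covered bp after centring. For Ccna2, over 7 lists, they were Ttc16 (0.257), Helz2 (0.270) and Gm30679 (0.275) on chromosome 2, against a median of 0.619 over 2022 candidates. For Ccnd2, over 3 lists, they were Fam136a and Snrpg on chromosome 6 (0.0144 each, with windows that share their peaks) and Snx30 on chromosome 4 (0.0179), against a median of 0.308 over 5243 candidates. Ccnd1, Ccne1 and Ccne2 gave no such measure, since a list that reached them had no peak.

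Other cell cycle genes were read from 5 lists by role, 67 genes in all. For H3K27ac in TSA-treated mice, 39 lay in the stretch both lists cover and 30 had a peak in both, beside 58.5% of all genes there. Of these, 1 was past the fold higher and 3 lower in old TSA cells, where 9.62% of all genes were higher and 4.94% lower, with a median of -0.18 beside -0.06 over all genes. A peak in old TSA and none in young TSA was seen at 1, Cdkn2b, an inhibitor of the kinases that partner D-type cyclins, with 119 tags in old TSA cells. Of all 10944 genes in the stretch, 2.62% showed this. A peak in young TSA and none in old TSA was seen at 3, Cdk6 (a D-type cyclin partner, 28 tags), Plk1 (a mitotic kinase, 77 tags) and Tfdp1 (the dimer partner of E2F, 29 tags). Of all genes in the stretch, 0.731% showed this. Among young TSA peaks under 50 tags, as at Cdk6 and Tfdp1, 40.0% had no overlapping old TSA peak. The remaining 5 had no peak in either. The 3 lower genes were all from the list of replication and mitosis.

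By role, the other cyclins had a peak in both lists at 6 of 7, with 0 past the fold and 0 in one list alone. The exception was Ccna1, the other A-type cyclin, with a peak in neither. The lowest relative tags for old TSA over young TSA were at Mcm3 (-1.34, with 42 tags in old TSA and 104 in young TSA cells), Mcm6 (-1.15, 94 and 204 tags) and Aurka (-0.76, 275 and 453 tags). Mcm3 and Mcm6 encode subunits of the replicative helicase and Aurka a mitotic kinase. The highest were at Cdkn1c (1.31, 163 tags in old TSA and 64 in young TSA cells), an inhibitor of cyclin-dependent kinases, Cdc25b (0.52, 1392 and 944 tags), a phosphatase that activates them, and Cdkn2c (0.33, 2246 and 1747 tags), an inhibitor. Medians were -0.11 for other cyclins, 0.08 for the kinases, 0.06 for their inhibitors, -0.30 for pocket proteins and E2F and -0.18 for replication and mitosis.

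**Figure D5:**
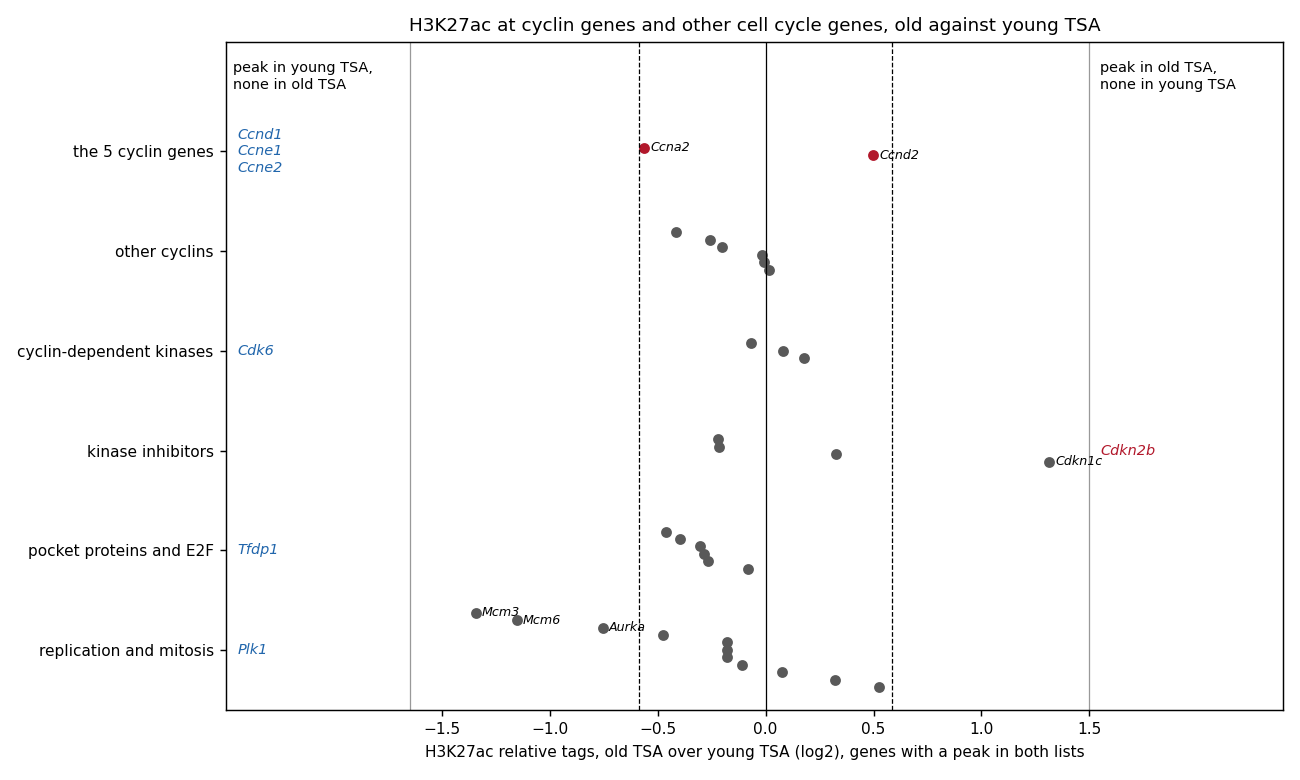
H3K27ac relative tags (log2) for old TSA over young TSA at the 5 cyclin genes described here and 5 lists of other cell cycle genes, 1 point for each gene with a peak in both lists, dashed lines at the 1.5-fold. Genes with a peak in one list alone are named at the sides: 6 with a peak in young TSA and none in old TSA, and Cdkn2b with the reverse.

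In the other comparisons fewer of the 67 genes were reached. For H3K27ac in old mice, TSA over vehicle, 17 of 23 had a peak in both lists, beside 56.5% of all genes. Of these, 3 were past the fold higher (E2f2 1.14, Cdkn2b 0.99 and E2f1 0.85) and 0 lower, beside 14.3% and 0.709% of all genes. Bub1 and Mcm3 had a peak in old TSA and none in old vehicle cells, as did 5.03% of 5491 genes. The median was 0.04 beside 0.11 over all genes. In young mice 12 of 14 had a peak in both, beside 58.9% of all genes, with a median of 0.06 beside 0.01. Of these, 0 were past the fold, beside 2.06% higher and 6.28% lower of all genes. For old over young vehicle, 10 of 14 had a peak in both, beside 56.7% of all genes, with a median of -0.23 beside -0.17. Of these, 0 were higher and 3 lower (E2f1 -1.05, Mcm6 -0.94 and Rbl1 -0.70), beside 3.82% and 16.4% of all genes. Bub1 and Mcm3 had a peak in young vehicle and none in old vehicle cells, as did 4.86% of 3788 genes. E2f1 encodes a transcription factor that the retinoblastoma protein holds in check, and Rbl1 a relative of that protein.

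For H3K9/14ac in old mice, TSA over vehicle, 19 of 20 had a peak in both lists, beside 62.3% of all genes, with a median of -0.09 beside -0.04. Of these, Ccnl1 was higher (0.62) and E2f1 lower (-0.91), beside 7.75% and 8.75% of all genes. Ccna1 had a peak in old TSA and none in old vehicle cells, as did 1.42% of 5157 genes. In young mice, TSA over vehicle, 10 of 10 had a peak in both, beside 60.6% of all genes. Bub1 was higher (0.59) and 0 were lower, beside 10.3% and 5.55%. For old over young vehicle 10 of 10 had a peak in both, beside 60.8%. Here 0 were higher and Ccnt2 (-0.87) and Pcna (-0.68) were lower, beside 13.3% and 6.06%. Medians were 0.19 and -0.03 in these 2 comparisons, beside 0.02 over all genes in each. For old TSA over young TSA 20 of 20 had a peak in both, beside 63.2% of all genes, with a median of -0.11 beside -0.06. Of these, Cdkn2a was higher (0.83) and E2f1 (-1.13) and Mcm3 (-0.94) lower, beside 7.23% and 9% of all genes. Genes lower in old TSA than in young TSA cells for both marks included Mcm3, E2f1 (-0.46 for H3K27ac) and Ccna2. E2f2 was too, at -0.27 for H3K27ac and -0.53 for H3K9/14ac. Mcm3, E2f1 and Ccna2 passed the fold for H3K9/14ac, and of these Mcm3 alone did for H3K27ac.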

How the data were processed

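Per the file headers, each of 8 lists came from HOMER's program for differential peaks, run with the same tag directory as target and background, so the deposited tag count of each peak is a whole number and not normalized. The submitters' processing notes also name Bowtie 0.12.7, MACS2 and build GRCm38 with no roles. The peak calling and the total depth of the libraries are not given in the sources used here. In total 4 input samples were left out.

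In all, 77135 complete peaks were read, and the tags in peaks of a shared stretch ranged from 452476 to 4159284 per library. Tags of a peak that crosses a window's border were counted by the share of its width inside. Relative tags, their intervals and the background over all protein-coding genes were computed in Python 3.11.15 with NumPy 2.4.6 and SciPy 1.17.1. Relative tags and their intervals were checked on simulated data. The simulated lists shared their peak positions and widths, so the check does not cover peaks that change in width or go missing. PCR duplicates are not told apart from molecules, so intervals cover counting error only.

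The cyclin genes, the gene lists and the markers were chosen with earlier results of these data known. The named genes were the 5 cyclins, their neighbours and, per comparison, the highest and lowest 3 of the lists, together with those past the fold or with a peak in one list alone. Comparisons with peaks of like tags and values of single regions were added after their values were seen. Alternatives were other flanks, other scalings, whole tags of border peaks and the wider peaks alone. One further marker list is not reported here.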

Additional observations from a re-analysis of the deposited data

Results flagged for a closer look

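H3K27ac at Ccna2 went in opposite directions at the 2 ages. Relative tags were -0.14 for old TSA over old vehicle and 0.12 for young TSA over young vehicle, with 1 library on each side. The difference was not tested, each counting interval includes 0, and without scaling both signs turned, to 0.34 in old and -0.01 in young mice.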

How the results depend on the processing

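No paired analysis was possible because each group has 1 library. The called value stayed past the fold where it could be computed. Relative tags stayed within their counting intervals with flanks of 2000 bp, scaling by total tags in peaks or whole tags of border peaks (9 of 9 each), but Ccna2 H3K27ac in old TSA over young TSA passed the fold at -0.66 when scaled by total tags. Without scaling, relative tags at Ccna2 became 0.34 for H3K27ac in old TSA over old vehicle, -0.88 in old over young vehicle, and for H3K9/14ac -0.92 in old TSA over old vehicle and -1.41 in old TSA over young TSA; at Ccne2 the same H3K9/14ac contrasts gave -0.41 and -0.63. Of these, Ccna2 H3K27ac and Ccne2 H3K9/14ac in old TSA over old vehicle changed sign, as did Ccna2 H3K27ac in young TSA over young vehicle at -0.01, none of them called. The values -0.88, -0.92 and -0.63 were past the fold only without scaling. With the gene body alone Ccnd2 H3K27ac in old TSA over young TSA was 0.82, past the fold. With the wider 50% of peaks alone it was 0.23 and H3K9/14ac at Ccne2 in old TSA over old vehicle was 1.09, past the fold, while Ccna2 gave no relative tags in its 6 comparisons. Covered bp under that width limit were 0 for Ccna2 in 5 lists (H3K27ac old TSA, old vehicle and young TSA, H3K9/14ac old TSA and old vehicle), 0 for Ccnd1 and Ccne1 wherever they had a peak and 0 for Ccne2 H3K27ac in young TSA cells. They were 3445 in old TSA and 3703 in young TSA cells for Ccnd2 H3K27ac, 4263 for its H3K9/14ac, and 1414 in old TSA, 678 in old vehicle and 1565 in young TSA cells for Ccne2 H3K9/14ac. The number of cyclin genes with a young TSA peak and none in old TSA was then 0. With flanks of 2000 bp Ccnd1 covered 1096 bp in young TSA cells and Ccnd2 4318 bp in old TSA and 3505 bp in young TSA cells (H3K27ac) and 3528 bp (H3K9/14ac). With the gene body alone Ccnd1 covered 504 bp, Ccnd2 3368, 2463 and 2917 bp in the same order, Ccne1 0 bp of H3K27ac in young TSA and 644 bp of H3K9/14ac in old TSA cells, and Ccne2 H3K9/14ac 1790 bp in old TSA, 1698 bp in old vehicle and 1936 bp in young TSA cells. The cause was not tested. Limits are the single library per group, lists that end at different places, the unknown total depth, and peak lists that record nothing where no peak was called, so an absent peak is not a tag count of 0.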
